A study of Mus musculus with 8 samples.

Results

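The ErbB family of growth factor genes was examined in cold-exposed mouse adipose tissue, as 9 genes of the 18395 in the count table. They comprise 5 ligands, Btc, Nrg4, Hbegf, Egf and Tgfa, and the 4 receptors, Egfr, Erbb2, Erbb3 and Erbb4. The family was chosen by the KO against WT log2 fold change of the betacellulin gene Btc, which was among the lowest, and its other members by name. The KO against WT values of Btc are therefore given as a description with no test, and the count of members that lay lower is read with that in mind. RNA from whole tissue was sequenced in 8 libraries. In 4 of them, called KO, the mice lacked Kindlin-2 in brown adipocytes, and the other 4, called WT, came from control mice. All mice of both groups had spent 6 h at 4 °C. The labels name the tissue only as adipose, and the sources used here give neither the Cre driver nor the age, sex or strain of the mice. Whether each library came from its own mouse is not stated, so a p-value here speaks of the spread among these samples, which may be technical.

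ErbB receptors are membrane tyrosine kinases that pair with each other when a ligand of the epidermal growth factor family binds. Betacellulin and heparin-binding EGF bind the EGF receptor and ErbB4, EGF and TGF-alpha bind the EGF receptor, and neuregulin 4 binds ErbB4. ErbB2 has no known ligand of its own and acts as a partner, and ErbB3 has little kinase activity and signals through its partners. In mice, neuregulin 4 is known as a factor that brown fat secretes and that acts on the liver.

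The libraries held 35734373 to 40927141 counts in KO and 33672272 to 43253559 in WT. Levels are given as CPM, the counts of a gene relative to the library's total, scaled by the TMM method that evens out composition. Fermt2, the gene of Kindlin-2 (ENSMUSG00000037712), measured 192, 132, 173 and 174 CPM in KO replicates 1 to 4, against 239, 235, 244 and 201 CPM in WT replicates 1 to 4. Its log2 fold change was -0.45 ± 0.14 (SE), with an edgeR adjusted p of 0.134. Ucp1, a marker of brown adipocytes, was abundant at 1793 to 4301 CPM in KO and 5082 to 6576 CPM in WT, though levels varied widely among such markers. In contrast, 7 epithelial markers summed to less than 1 CPM in each library (0.173 to 0.961 CPM in KO and 0.251 to 0.67 CPM in WT). A pair of libraries stood apart. KO replicate 2 had 251 CPM of 10 T and NK cell markers, against 53.3 CPM at most in the other KO libraries and 37.6 CPM at most in WT. WT replicate 3 had 39830.5 CPM of 10 skeletal muscle markers, against 257 CPM at most elsewhere. Results are given with all 8 libraries and, where it matters, without those 2 (the 6-library comparison, 3 against 3). In whole tissue, fewer cells of a type and less RNA per cell cannot be told apart.

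With all 8 libraries, 0 of 13901 genes reached an adjusted p under 0.05 in the quasi-likelihood test of edgeR (0%), and 2993 genes (21.5%) had an unadjusted p under 0.05. None of the 8 members other than Btc was among the called genes. The 6-library comparison called 461 genes (3.32%), of which Erbb2 was the only one among those 8 members. DESeq2 called 1113 of 12778 genes with an adjusted p (8.71%), including Nrg4 as the only one of the 8. On simulated counts DESeq2 made more false calls than its threshold allows. Those counts were drawn with the spread of each gene as estimated by edgeR, so they do not measure the false calls among the 1113. With limma-voom and sample quality weights, 3 of the 8 were called, Nrg4, Erbb2 and Erbb4, beside 6.55% of all genes. All 9 members passed the filter on low counts. In 2 of the 9 genes, Btc and Nrg4, every KO library lay below every WT library, a pattern found in 7.56% of all genes tested, and the choice of the set through Btc leaves nothing to be read from that count. The separation of these ligands, the partial separation of Erbb2 and the overlap of the other 6 genes are seen in the plot of CPM by library.

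**Figure D1:**
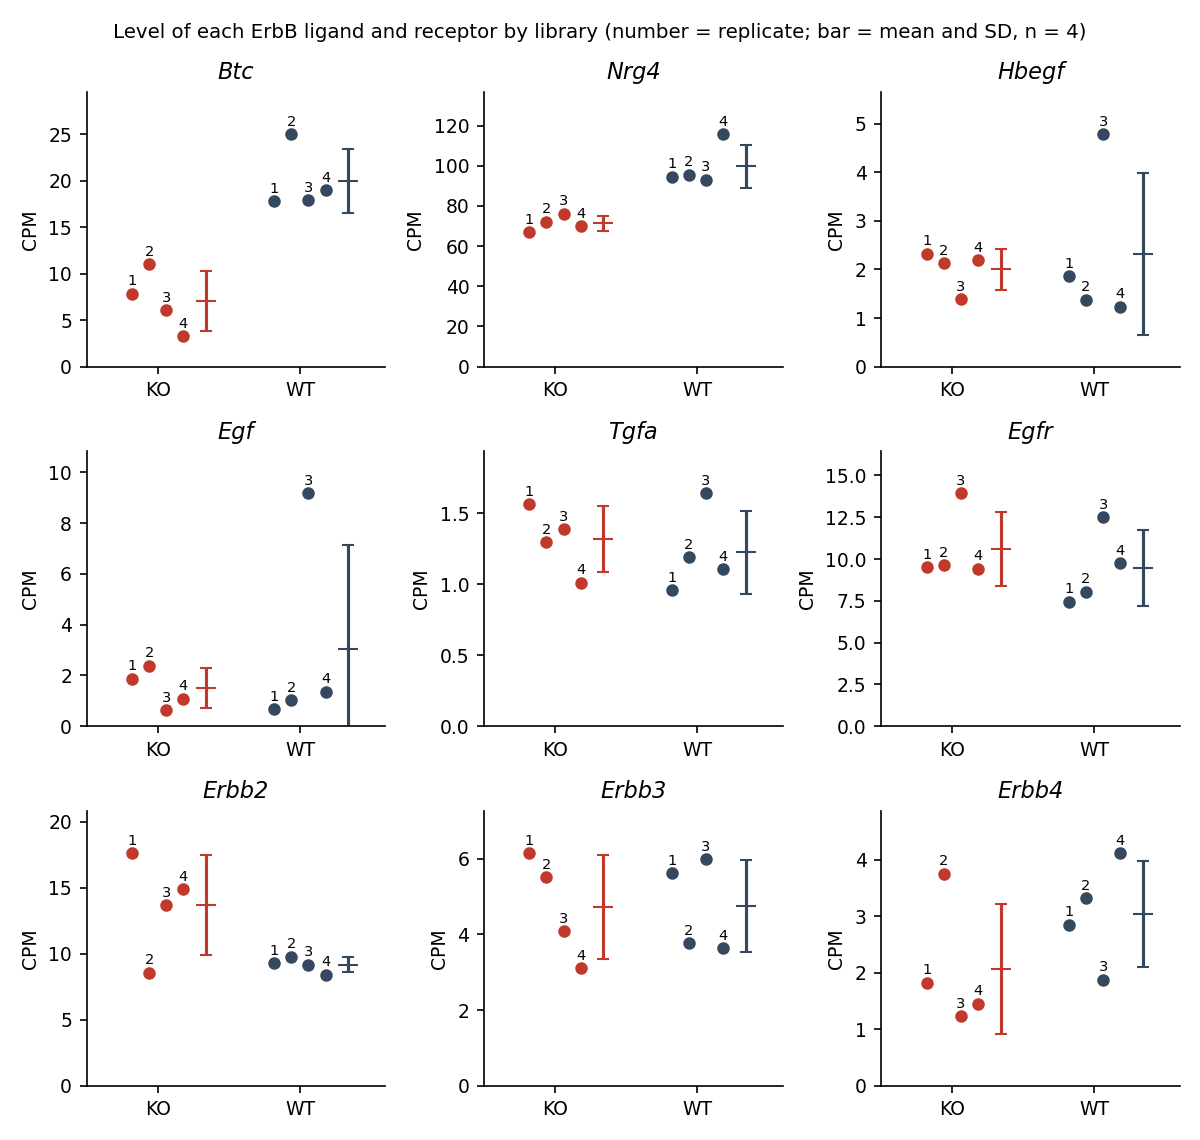
Level of each of the 9 genes in CPM (y axis, from 0) in the 4 KO and 4 WT libraries. Points are libraries with their replicate number, and bars give the mean and SD (the SD bar of Egf in WT runs below 0 and is cut by the axis). Btc lies at 3.25 to 11.0 CPM in KO and 17.8 to 25.1 CPM in WT, and the Egf value of WT replicate 3 (9.17 CPM) stands above all others.

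Betacellulin, an EGF-like ligand made as a membrane precursor, had the largest KO against WT fold change of the 9 genes, while in CPM the more abundant Nrg4 differed by more. Btc (ENSMUSG00000082361, chromosome 5) measured 7.86, 11.0, 6.07 and 3.25 CPM in KO replicates 1 to 4, against 17.8, 25.1, 17.9 and 19.0 CPM in WT replicates 1 to 4. The highest KO library, replicate 2, stayed below the lowest WT library, and KO replicate 4 was the lowest of all. The means were 7.05 ± 3.25 CPM in KO and 20.0 ± 3.45 CPM in WT (SD, n = 4 each), so that the KO mean was 0.353 of the WT mean. The log2 fold change of -1.50 ± 0.33 (SE) ranked at place 263 from the lowest among 13901 genes tested. Among the 11390 genes whose mean log2 CPM reached 1 it stood at place 131. It was -1.85 ± 0.30 in the 6-library comparison and lay between -1.99 and -1.24 over the 17 alternatives tried.

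The KO libraries differed among themselves in Btc more than the WT libraries did relative to their mean. Within KO, the order of Btc was not that of the brown adipocyte genes. KO replicate 2 had the highest Btc of its group and the lowest sum of 10 brown adipocyte markers (5729 CPM), while KO replicate 4 had the lowest Btc and a sum of 9133 CPM. The sums were 6863 CPM in KO replicate 1 and 9311 CPM in KO replicate 3, against 9323 to 11752 CPM in the 4 WT libraries.

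Neuregulin 4 was the most abundant member in both genotypes and differed less. Nrg4 (ENSMUSG00000032311, chromosome 9) measured 66.9, 72.2, 76.2 and 70.0 CPM in KO replicates 1 to 4, against 94.6, 95.5, 93.0 and 116 CPM in WT replicates 1 to 4. The KO values were tightly grouped and all lay below the WT values, among which replicate 4 was highest. The KO mean of 71.3 ± 3.90 CPM was 28.5% below the WT mean of 99.7 ± 10.8 CPM (SD, n = 4 each). On the log2 scale Nrg4 differed by -0.48 ± 0.11 (SE; edgeR adjusted p = 0.0981 over all genes), so the difference missed the threshold of 0.05. The adjusted p was 0.0537 in the 6-library comparison, 0.00578 in DESeq2 and 0.0291 in limma-voom with sample quality weights, and ranged from 0.00578 to 0.238 over the alternatives. With scaling by total counts alone the log2 fold change of Nrg4 was -0.23, a scaling under which the median over all genes was 0.264 instead of 0.00362.

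The sequences upstream of Btc and Nrg4 are shown because these were the pair whose KO and WT libraries did not overlap. Each window holds 300 bases, from 250 before to 50 after the RefSeq start (build GRCm38.p6, an older build than the GRCm39 of the counts). Btc is at chr5:91402945-91403244 and Nrg4 at chr9:55283576-55283875, both on the minus strand, and they are printed 5′ to 3′ along the gene. Of 4 motifs searched on both strands, capitals mark 2, which do not overlap each other here. These are AGGTCA (or TGACCT), the core hexamer bound by nuclear receptors such as PPAR-gamma and thyroid hormone receptors, and CANNTG, the E-box of basic helix-loop-helix factors.
Btc: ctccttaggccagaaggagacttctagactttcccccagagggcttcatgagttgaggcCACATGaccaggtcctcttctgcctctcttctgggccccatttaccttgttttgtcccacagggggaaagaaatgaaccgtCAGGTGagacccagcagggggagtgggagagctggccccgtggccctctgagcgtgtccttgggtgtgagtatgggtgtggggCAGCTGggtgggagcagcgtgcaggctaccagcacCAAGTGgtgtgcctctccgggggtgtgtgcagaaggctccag
Nrg4: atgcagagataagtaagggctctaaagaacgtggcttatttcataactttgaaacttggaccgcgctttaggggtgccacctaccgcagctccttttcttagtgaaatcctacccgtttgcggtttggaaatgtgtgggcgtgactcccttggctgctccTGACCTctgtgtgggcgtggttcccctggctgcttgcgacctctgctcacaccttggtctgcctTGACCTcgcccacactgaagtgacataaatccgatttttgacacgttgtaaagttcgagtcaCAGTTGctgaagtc
The Btc window held 4 E-boxes and 0 nuclear receptor hexamers. The Nrg4 window held 1 E-box and 2 hexamers, both as TGACCT. Of 32851 RefSeq promoter windows of this length, 72.3% held at least 1 E-box and 6.49% at least 4, while 16.3% held at least 1 hexamer and 1.81% at least 2. Windows were found for 7 of the 9 members, and those of Egf, Tgfa, Egfr, Erbb2 and Erbb4 held 0 hexamers. The other motifs searched were TGACG (or CGTCA), the core of cAMP response elements, and GGGCGG (or CCGCCC), the GC box. The Btc window held 1 TGACG match, as CGTCA overlapping an E-box, and the Nrg4 window 0, where 20.8% of all windows held at least 1. Neither window held a GC box, found in 35.7% of all windows. These are matches of letters and no measure of binding.

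Neighbouring genes gave the local context of both ligands. The tested genes on either side of Btc were Mthfd2l, a mitochondrial folate enzyme, at -0.28 ± 0.18 on the log2 fold change scale (SE; edgeR adjusted p = 0.374), and Parm1 with -0.07 ± 0.24 (adjusted p = 0.890). Those beside Nrg4 were Fbxo22, an F-box protein, with -0.16 ± 0.11 (adjusted p = 0.403), and Tmem266 with -0.28 ± 0.37 (adjusted p = 0.671). In each of these 4 genes KO and WT libraries overlapped.

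The other 3 ligands were scarce, and their KO and WT libraries overlapped. Hbegf, the heparin-binding ligand (ENSMUSG00000024486), measured 2.33, 2.12, 1.39 and 2.19 CPM in KO replicates 1 to 4, against 1.86, 1.38, 4.79 and 1.23 CPM in WT replicates 1 to 4. Egf itself (ENSMUSG00000028017) measured 1.87, 2.39, 0.641 and 1.08 CPM in KO, against 0.66, 1.03, 9.17 and 1.36 CPM in WT. In both genes WT replicate 3, the library rich in muscle transcripts, was the highest of all 8. Fos, an immediate early gene, was likewise at 107 CPM there, against 3.24 CPM at most in KO and 6.06 CPM at most in the other WT libraries. The part of muscle tissue in these values was not tested.

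The direction of both genes turned without that library, and that of Hbegf also turned with other methods. The log2 fold change of Hbegf was -0.20 ± 0.45 (SE; edgeR adjusted p = 0.819) with all libraries and 0.43 without WT replicate 3. For Egf it was -1.02 ± 0.84 (adjusted p = 0.492) and 0.55 without that library. With all 8 libraries kept, Hbegf also lay higher in KO with scaling by total counts alone (0.09) and in limma-voom without (0.05) and with quality weights (0.18). The same held with replicate number as a block (0.03). Tgfa (ENSMUSG00000029999) measured 1.57, 1.30, 1.39 and 1.01 CPM in KO, against 0.96, 1.19, 1.64 and 1.11 CPM in WT, with overlap and a KO over WT log2 fold change of 0.11 ± 0.31 (edgeR adjusted p = 0.866).

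Among the receptors, Erbb2 lay highest in KO and Erbb4 was scarce in both groups. Erbb2 (ENSMUSG00000062312, chromosome 11) measured 17.7, 8.56, 13.7 and 14.9 CPM in KO replicates 1 to 4, against 9.30, 9.77, 9.17 and 8.42 CPM in WT replicates 1 to 4. KO replicates 1, 3 and 4 lay above every WT library, and KO replicate 2 lay within the narrow WT range. The means were 13.7 ± 3.81 CPM in KO and 9.17 ± 0.564 CPM in WT (SD, n = 4 each), a log2 fold change of 0.58 ± 0.21 (SE) with an edgeR adjusted p of 0.173. Erbb2 rose in the 6-library comparison, by 0.75 ± 0.16 with an adjusted p of 0.0425, and without KO replicate 2 alone (0.75, adjusted p = 0.0387). Both fits left out KO replicate 2, and they called 461 and 361 genes among all genes. With any other single library left out, the edgeR adjusted p of Erbb2 lay between 0.228 and 0.339. The adjusted p over the alternatives ranged from 0.0387 to 0.339.

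Erbb4, the receptor of neuregulin 4 (ENSMUSG00000062209, chromosome 1), measured 1.82, 3.75, 1.23 and 1.45 CPM in KO, against 2.85, 3.32, 1.88 and 4.12 CPM in WT. KO replicates 1, 3 and 4 lay below every WT library, and KO replicate 2 lay among the WT libraries, as it did for Erbb2. The log2 fold change was -0.56 ± 0.40 (SE; edgeR adjusted p = 0.425), and -1.02 (adjusted p = 0.112) without KO replicate 2. In the 6-library comparison it was -1.19 ± 0.30 with an adjusted p of 0.0606, and limma-voom with quality weights, the only alternative to pass, gave 0.0495 in a range of 0.0495 to 0.681.

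Egfr and Erbb3 did not separate the groups. Egfr (ENSMUSG00000020122) measured 9.49, 9.63, 13.9 and 9.41 CPM in KO, against 7.44, 8.05, 12.5 and 9.75 CPM in WT. Replicate 3 was the highest of each group. The log2 fold change of Egfr was 0.17 ± 0.21 (SE; edgeR adjusted p = 0.658), and 0.0032 without KO replicate 3. Erbb3 (ENSMUSG00000018166) measured 6.15, 5.52, 4.09 and 3.11 CPM in KO, against 5.61, 3.76, 5.99 and 3.64 CPM in WT. Its log2 fold change was -0.0094 ± 0.28 (adjusted p = 0.988), and scaling by total counts alone gave 0.27.

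**Figure D2:**
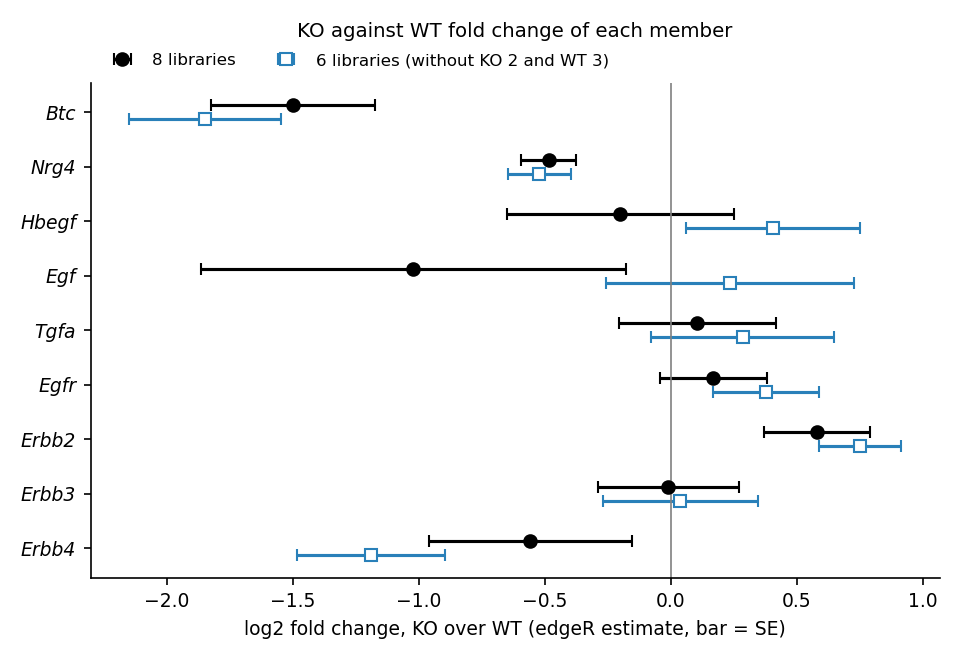
Log2 fold change of KO over WT (x axis) of each member by edgeR, with all 8 libraries (filled circles) and with 6 (open squares, without KO replicate 2 and WT replicate 3). Bars are standard errors. Hbegf and Egf change side between the fits, and Erbb4 moves from -0.56 with 8 libraries to -1.19 with 6.

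To compare levels between genes, CPM was divided by the exon length of each gene in kilobases. Nrg4 led in both genotypes, with 11.7 ± 0.642 CPM per kb in KO and 16.4 ± 1.78 CPM per kb in WT (SD, n = 4 each). In KO it was followed by Erbb2 (2.63 ± 0.731), Btc (1.56 ± 0.72), Egfr (0.937 ± 0.195), Erbb3 (0.784 ± 0.229) and Hbegf (0.415 ± 0.0871), in CPM per kb. In WT the next was Btc (4.41 ± 0.763), followed by Erbb2 (1.76 ± 0.108), Egfr (0.834 ± 0.201), Erbb3 (0.79 ± 0.204) and Hbegf (0.479 ± 0.346), in CPM per kb. Egf, Erbb4 and Tgfa averaged between 0.133 and 0.203 CPM per kb in KO and between 0.189 and 0.271 CPM per kb in WT. Btc and Erbb2 thus stood in the opposite order in the 2 groups, a description that includes the difference by which Btc was chosen. Their libraries did not overlap in WT (Btc from 3.94, Erbb2 up to 1.88 CPM per kb), whereas in KO they did (Btc up to 2.44, Erbb2 from 1.64 CPM per kb). Erbb2, Btc, Egfr and Erbb3 overlapped each with the next in KO, and in WT so did Egfr, Erbb3, Hbegf, Egf, Erbb4 and Tgfa.

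**Figure D3:**
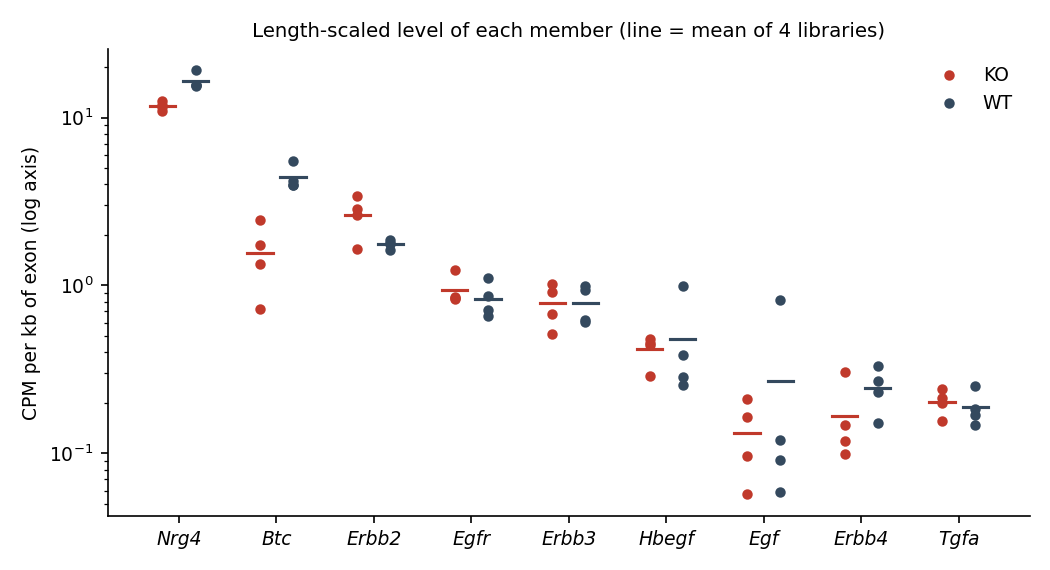
Level of each member in CPM per kilobase of exon (y axis, log scale), with KO left of WT. Points are libraries and lines the mean of 4. Nrg4 lies above all other members in both groups. The mean of Btc lies below that of Erbb2 in KO and above it in WT, and in KO replicate 2 Btc (2.44 CPM per kb) is above Erbb2 (1.64 CPM per kb).

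Of the length-scaled ligand level, Btc made up 10.9% ± 4.52 in KO and 20.3% ± 3.48 in WT (SD, n = 4 each). Nrg4 made up 83.7% ± 5.02 in KO and 75.3% ± 4.09 in WT. Its mean share was higher in KO although its mean level was 28.5% lower, since shares of a sum depend on each other. Hbegf, Egf and Tgfa each stayed at or under 3.53% in KO and 4.64% in WT. Among the receptors, Erbb2 made up 57.5% ± 9.65 of the summed level in KO and 48.6% ± 4.21 in WT, and Erbb4 3.94% ± 2.84 in KO and 6.92% ± 2.51 in WT. In receptor shares the libraries of the 2 groups overlapped for each of the 4 genes. The shares of Btc did not overlap, with 16.1% at most in KO and 17.7% at least in WT. This restates the difference by which Btc was chosen and is not read further. Shares of Tgfa did not overlap either, and lay higher in KO (1.20% to 1.77%) than in WT (0.715% to 1.19%). They are parts of a sum that includes Btc, and the CPM of Tgfa overlapped.

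Members were set beside markers of the cell types of the tissue, since these lists also differed. Of 10 general adipocyte markers 9 lay lower in KO, and their median log2 fold change was -0.45, beside 0.00362 over all genes, and their summed level was 18704 to 24639 CPM in KO and 23522 to 27558 CPM in WT. Of 10 brown adipocyte markers 9 lay lower (median -0.22). All 10 endothelial markers lay higher (median 0.67), with sums of 2921, 1645, 2222 and 2873 CPM in KO replicates 1 to 4 and 1736, 1789, 1315 and 1632 CPM in WT replicates 1 to 4. With scaling by total counts alone the medians were -0.20 for the adipocyte, 0.03 for the brown adipocyte and 0.93 for the endothelial list, beside 0.264 for all genes. Other lists differed too. All 10 T and NK cell markers (median 2.04) and all 10 macrophage markers (median 0.42) lay higher in KO, as did 9 of 10 Schwann cell markers (median 0.40) and 8 of 10 mural cell markers (median 0.21). In the 6-library comparison the medians were 0.97 for T and NK cells, 0.13 for macrophages, 0.25 for Schwann cells and 0.32 for mural cells. Of 9 fibroblast markers 6 lay lower (median -0.47, and -0.13 with 6 libraries), and all 10 skeletal muscle markers lay lower (median -7.05, and -2.14 with 6 libraries). The muscle values rested on WT replicates 3 and 4, with sums of 39830.5 and 257 CPM. WT replicates 1 and 2, at 4.23 and 4.14 CPM, lay below every KO library (8.98 to 251 CPM).

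The level of each member was also taken relative to a marker list, as a description. Since Btc was chosen by its KO against WT difference, that difference also stands in its relative level and is not read further. The log2 CPM of Btc minus the mean log2 CPM of the 10 markers was -7.15 ± 0.804 in KO and -5.91 ± 0.212 in WT (SD, n = 4 each), and all KO libraries (up to -6.26) lay below all WT libraries (from -6.09). That difference of -1.24 stands beside -1.61 for log2 CPM without the markers. Relative to the brown adipocyte markers, KO replicate 2 (-3.63) lay above every WT library, and the other 3 KO libraries (up to -4.59) lay below every WT library (from -4.20). For Nrg4 the same quantity against the adipocyte markers was -3.69 ± 0.122 in KO and -3.58 ± 0.0786 in WT, with overlapping libraries and a difference of -0.11, beside -0.48 without the markers. Against the brown adipocyte markers Nrg4 was at -1.63 ± 0.528 in KO and -1.66 ± 0.142 in WT, a difference of 0.036 with overlap. There KO replicate 2 (-0.93) lay above every WT library, and 2 KO libraries lay below every WT library. Erbb4 against the adipocyte markers differed by -0.26, beside -0.63 without them, and its libraries overlapped.

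Erbb2 was set beside the endothelial markers. KO replicates 1 and 4 had the highest sums of those markers and the highest Erbb2, and KO replicate 2 had the lowest of its group in both. Mural cell markers had the same high and low KO libraries, with sums of 1343, 838, 1292 and 1376 CPM in KO replicates 1 to 4 and 957 to 1183 CPM in WT. Relative to the mean of the endothelial markers, Erbb2 was -3.73 ± 0.128 in KO and -3.66 ± 0.194 in WT on the log2 scale, a difference of -0.06 beside 0.53 without the markers. The libraries of the 2 groups overlapped. Egfr relative to 9 fibroblast markers was -1.52 ± 0.158 in KO and -2.06 ± 0.468 in WT. Erbb3 relative to 10 Schwann cell markers was -0.83 ± 0.307 in KO and -0.46 ± 0.575 in WT, again with overlap in each. The part of cell composition in each member's difference was not tested. The plot of members against markers gives the values of Btc, Nrg4 and Erbb2 by library.

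**Figure D4:**
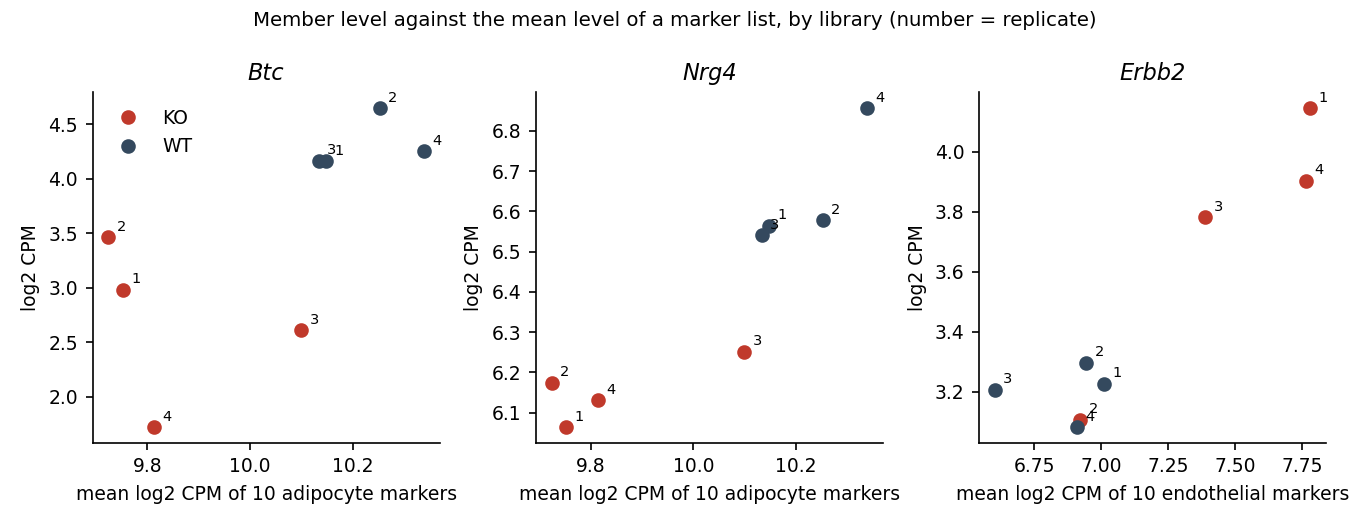
Log2 CPM of Btc, Nrg4 and Erbb2 (y axes) against the mean log2 CPM of 10 adipocyte or 10 endothelial markers (x axes). Points are libraries with their replicate number. The 4 KO libraries lie well below the WT libraries for Btc, while for Erbb2 the KO libraries other than replicate 2 lie high on both axes.

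The genes most like Btc and Nrg4 over the 8 libraries were found by the root mean square difference of log2 CPM profiles, each centred on its own mean, among 11365 genes with a symbol and a mean log2 CPM of at least 1. A small value means that the profiles nearly coincide. Nearest to Btc were Acsm3, a mitochondrial medium-chain acyl-CoA synthetase (0.321), Tmem56 (0.466), Spata17 (0.486), Rhobtb3 (0.492) and Acadvl, the very long-chain acyl-CoA dehydrogenase (0.51). Acsm3 measured 22.3, 33.0, 19.4 and 12.2 CPM in KO, against 34.1, 57.7, 35.0 and 56.1 CPM in WT, a likeness to Btc that is how it was found. Nearest to Nrg4 were Acadsb, a short branched-chain acyl-CoA dehydrogenase (0.0597), Fbxo9 (0.0673), Taf6, a subunit of the general transcription factor TFIID (0.0676), Tmem69 (0.0694) and Acad12, a member of the acyl-CoA dehydrogenase family (0.0694). Acadsb averaged 139 ± 6.93 CPM in KO and 194 ± 13.5 CPM in WT. For Erbb2, looked up after its values were seen, the nearest were Tcf4, a transcription factor (0.0784), the non-coding RNA Bvht (0.087), Ednrb, the endothelin B receptor (0.0892), Gjc1, a connexin (0.0977) and Gpihbp1, the capillary anchor of lipoprotein lipase (0.103). Ednrb measured 159, 77.1, 117 and 132 CPM in KO, against 73.0, 76.2, 78.4 and 78.9 CPM in WT.

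The rest of the pathway was read from 5 lists with 69 genes, of which 62 were tested and 0 were called over all genes, beside 0% of all genes. Of the 62, 30 lay higher and 32 lower in KO, where 49.5% of all genes lay lower, and 13 had an unadjusted p under 0.05, beside 21.5% of all genes. The 6-library comparison also called 0 of them, and DESeq2 called 2 that lay higher, Nras and Spry1, and 1 that lay lower, Adam9, beside 8.71% of all genes. With quality weights limma-voom called 6 of them, Adam9, Adam10, Adam17, Gab2, Nras and Spry1, beside 6.55% of all genes.

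Of the 6 other ligand genes, Areg, Ereg, Epgn, Nrg1 and Nrg3 reached at most 2 counts in any KO library and 7 in any WT library, too few to test. For scale, 3 counts correspond to 0.067 to 0.0802 CPM in KO and 0.0754 to 0.10 CPM in WT. Nrg2 had 13 to 45 counts in KO and 9 to 16 in WT, and differed by 0.80 ± 0.48 on the log2 scale (SE; edgeR adjusted p = 0.347).

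Ligands of this family are cut from the membrane by ADAM proteases. Of 9 genes for that step 7 lay higher in KO, and the list's median log2 fold change was 0.34, beside 0.00362 over all genes (0.58, beside 0.264, with scaling by total counts alone). The list includes Timp3, an inhibitor of shedding, at 0.34 ± 0.22 (SE; edgeR adjusted p = 0.380). The member with the smallest p, the protease gene Adam9, lay lower, with 32.1, 37.6, 39.7 and 33.0 CPM in KO, against 44.4, 50.6, 51.0 and 62.1 CPM in WT. Its log2 fold change was -0.55 ± 0.13 (SE; edgeR adjusted p = 0.101, and 0.0129 in DESeq2, with a range of 0.0129 to 0.239 over the alternatives). Adam10, the main sheddase of betacellulin in mouse cells, and Adam17, that of TGF-alpha and heparin-binding EGF, were looked up after their values were seen. Adam10 averaged 50.2 ± 4.17 CPM in KO and 40.7 ± 1.94 CPM in WT, and Adam17 averaged 48.1 ± 2.83 CPM in KO and 38.0 ± 3.55 CPM in WT (SD, n = 4 each). All 4 KO libraries lay above all 4 WT libraries in both, as they did in 5.8% of all genes tested. Their log2 fold changes were 0.30 ± 0.10 and 0.34 ± 0.10, with edgeR adjusted p of 0.153 and 0.135. DESeq2 gave adjusted p of 0.0865 and 0.0662, and limma-voom with quality weights 0.0392 and 0.0345.

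Inside the cell, 25 adaptor and relay genes had a median log2 fold change of -0.09, with 9 higher and 16 lower. Nras, a small GTPase, had the smallest p, at 58.6, 62.2, 62.3 and 73.9 CPM in KO, against 50.8, 48.4, 48.1 and 46.5 CPM in WT. Its log2 fold change was 0.41 ± 0.10 (SE), with an adjusted p of 0.107 in edgeR and 0.0236 in DESeq2 (0.0236 to 0.265 over the alternatives). Of 18 genes that restrain the receptors or the kinase ERK, 9 lay higher and 9 lower (median -0.04). Spry1, a Sprouty inhibitor of receptor tyrosine kinase signals, measured 66.4, 61.7, 63.0 and 74.5 CPM in KO, against 30.7, 58.6, 39.3 and 33.0 CPM in WT. WT replicate 2 came close to the KO values, and the log2 fold change of Spry1 was 0.72 ± 0.20 (SE; adjusted p of 0.120 in edgeR, 0.0206 in DESeq2, and 0.0206 to 0.271 over the alternatives). Of 9 tested ERK-responsive genes, 4 lay higher and 5 lower (median -0.15). That median was above 0 without WT replicate 1 (0.060), without WT replicate 3 (0.022) and with 6 libraries (0.076), and the median of the brakes was 0.051 without WT replicate 1. With scaling by total counts alone the medians of these 3 lists turned to 0.17 for the relay, 0.22 for the brake and 0.12 for the ERK-responsive genes, each below the 0.264 of all genes. Junb, a subunit of the transcription factor AP-1, had the smallest p, with -0.75 ± 0.30 (SE; edgeR adjusted p = 0.206), and its WT mean of 33.6 ± 14.4 CPM, beside a KO mean of 20.0 ± 4.55 CPM, included 53.4 CPM in WT replicate 3.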

How the data were processed

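Per the labels' protocols, mRNA was captured with oligo(dT) and second strands carried dUTP. The authors deposited raw counts, whole numbers per gene and library. Per the submitters' processing notes, the build was GRCm39. The sources used here do not give the aligner, counter, strand setting or annotation. Of the deposited counts from 1 to 9, 71.3% were even, against 50.2% of those from 100 to 999. The cause of this, and its effect on members with few counts, were not tested.

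Symbols came from GENCODE release M21 (18321 of 18395 genes), as did exon lengths (union of exons, build GRCm38). Genes were kept by filterByExpr and scaled by TMM. KO was set against WT with edgeR 4.0.16 in R 4.3.3 (robust quasi-likelihood F test, group as the only term), with Benjamini-Hochberg adjustment over 13901 genes and a threshold of 0.05. Standard errors come from the fold change and the F statistic. Log2 CPM used a prior count of 2. DESeq2 1.42.0 was run on the whole table with its own filtering, and limma was version 3.58.1. edgeR, DESeq2 and limma-voom were tested on simulated counts with known changes. There edgeR made no false calls but missed most small changes, and DESeq2 made more false calls than its threshold allows. The counts were drawn with the spread of each gene as estimated by edgeR, a setting that may favour edgeR. Quality weights were not simulated. Figures used matplotlib 3.10.9.

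Members and lists were chosen with earlier results of these data known, as were the 2 libraries left out. Named were all members, Fermt2, from each pathway list without calls the gene of lowest p, and the 5 genes nearest to Btc and to Nrg4. Fos, Ucp1, Adam10, Adam17, Gab2, Timp3, the neighbours on the chromosome and the genes nearest to Erbb2 were added after their values were seen, as were the comparisons with marker lists. Alternatives were DESeq2 size factors, total counts only, no filter, limma-voom (plain or with quality weights), DESeq2, a filter keeping genes that reached 1 CPM in 4 libraries, a replicate block, each library left out, and the 6-library comparison.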

Additional observations from a re-analysis of the deposited data

Results flagged for a closer look

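In groups of 4 libraries, a value was singled out where its gap to the nearest other library exceeded Dixon's critical share of the group's range, which chance gives in about 5% of groups. Of 74 groups checked, 10 were singled out. The groups were not independent, since some genes were picked for likeness to a member and the odd libraries were known beforehand. The count is therefore not read against that share. Btc reached 25.1 CPM in WT replicate 2, against 17.8 to 19.0 CPM in the other WT libraries. Nrg4 reached 116 CPM in WT replicate 4 (93.0 to 95.5 CPM in the others), and Tmem69, one of the genes nearest to it, 17.5 CPM in the same library (12.6 to 13.1 CPM). Egf reached 9.17 CPM in WT replicate 3 (0.66 to 1.36 CPM), the library with 39830.5 CPM of skeletal muscle markers (4.14 to 257 CPM in the other WT libraries). Egfr reached 13.9 CPM in KO replicate 3 (9.41 to 9.63 CPM), where the fibroblast markers summed to 1010 CPM (684 to 734 CPM). In KO replicate 2, markers of T and NK cells summed to 251 CPM (26.4 to 53.3 CPM), of skeletal muscle to 251 CPM (8.98 to 31.4 CPM) and of Schwann cells to 230 CPM (142 to 151 CPM). The causes were not tested.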

How the results depend on the processing

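The 0 calls of edgeR over all genes became 882 (858 higher in KO) with total counts only, 1113 (511 higher) in DESeq2, 911 (408 higher) in limma-voom with quality weights, 1 without a filter, 461 (253 higher) in the 6-library comparison and 0 to 361 with each library left out, where the highest, 361, left out KO replicate 2, and leaving out WT replicates 1 or 4 gave 1 and 3. Pathway genes called, 0 of 62 tested with edgeR, were 6 with total counts only, 3 in DESeq2 and 6 with quality weights. All 6 with total counts only lay higher in KO, beside 882 of 13901 genes called, under a scaling that put the median of all genes at 0.264. The share of all genes called was 8.71% in DESeq2 and 6.55% with quality weights. Fermt2 was called by DESeq2 alone (-0.46, adjusted p = 0.0336, in a range of 0.0336 to 0.374 over the alternatives). Hbegf, below 0 with all libraries, was 0.087 with total counts only, 0.052 in limma-voom, 0.18 with quality weights, 0.030 with the replicate block and 0.41 with 6 libraries, and -0.41 to 0.43 with each library left out. Egf was 0.24 with 6 libraries and -1.36 to 0.55 with each left out, and Erbb3 was 0.27, 0.0053 and 0.039 with total counts only, in limma-voom and with 6 libraries, and -0.17 to 0.15 with each left out. Nrg4 and Erbb4 stayed below 0, and Erbb2, Egfr and Tgfa above 0, under all 17 alternatives, which refit the same libraries or part of them. Btc also stayed below 0, but it was chosen by its low fold change in these libraries, so its sign is not read further. The cause of the shifts between settings was not tested.

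KO and WT libraries share only replicate numbers. The deviations of same-numbered libraries from their group means correlated across genes at -0.05, 0.04, -0.13 and 0.22, and in 1 of 4 KO libraries the closest WT library had its own number. With the replicate block 0 genes were called, and Nrg4 had -0.48 (adjusted p = 0.150). Depth limits Egf, Hbegf, Tgfa and Erbb4 most, with 22 to 274 counts per library.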
